A study of Mus musculus with 18 samples.

Results

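The genes described here encode the machinery of the moving replication fork and of the assembly of new chromatin behind it: the parts that turn the Mcm2 to Mcm7 ring into an active helicase, the 3 replicative polymerases with their primase, the single-strand binding protein RPA, the sliding clamp and its loaders, the enzymes that join Okazaki fragments, and the factors that supply and deposit histones. The list held 44 gene symbols, picked by name for these functions. Of these, 43 were measured among the 18193 genes that had a probe set with a single gene symbol, each through its probe set with the highest mean signal, and Chaf1a was not analysed here. Signals are log2 values on Affymetrix-type probe sets, so a difference of 1 is a change by a factor of 2, and they were compared within a probe set only.

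The study profiled total RNA of small-intestinal crypts from mice aged 2 months in which an intestinal, inducible Cre transgene, Ah-cre, was used to delete the alleles, with harvest 2 days after. The 4 groups were E2f/Myc QKO, in which E2f1, E2f2, E2f3 and Myc were ablated (5 arrays), E2f TKO, in which E2f1, E2f2 and E2f3 were ablated (5 arrays), Myc KO (4 arrays) and control (4 arrays). The labels give neither the control genotype, the inducer, the sex nor whether an array holds 1 mouse or several, and they do not say which E2f alleles the Cre removed. The Ah promoter is that of the cytochrome gene Cyp1a1 and is active in epithelial cells. Cells that escape induction, and the other cells of a crypt preparation, thus keep whichever alleles the Cre was to remove.

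At a replication origin the loaded Mcm ring becomes a helicase only when Cdc45 and the GINS complex join it. The Dbf4-dependent kinase Cdc7, Topbp1, Mcm10, Recql4 and Donson also act at this start of replication. Polymerase alpha with primase then lays primers, polymerase epsilon copies the leading strand and polymerase delta the lagging strand on the Pcna clamp that replication factor C loads, while the CAF-1 complex places new histones on the copies. Many of these genes are textbook targets of E2f factors, whose activator members are E2f1, E2f2 and E2f3, and in the crypt they are used by the dividing progenitors.

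Promoter windows of 300 bases, 250 before to 50 after the transcription start, were matched in RefSeq (build GRCm38.p6) for 35 of the 43 measured genes, of which 6 had more than 1 window. The 6 windows below are shown because 4 belong to genes that rose in E2f/Myc QKO crypts (Rpa2, Pole2, Pold1 and Fen1) and the others to the 2 genes that fell there (Pold2 and Dbf4). Each runs 5′ to 3′ on the gene's strand, and the capitals mark E2f-type letters, searched as TTCCCGC or TTCGCGC or TTGCCGC or TTGGCGC on both strands. All 4 genes shown that rose hold these letters, but Mcm10, Pcna and Rpa1 also rose and held none in their windows.
Rpa2 (chr4:132768110-132768409, plus strand): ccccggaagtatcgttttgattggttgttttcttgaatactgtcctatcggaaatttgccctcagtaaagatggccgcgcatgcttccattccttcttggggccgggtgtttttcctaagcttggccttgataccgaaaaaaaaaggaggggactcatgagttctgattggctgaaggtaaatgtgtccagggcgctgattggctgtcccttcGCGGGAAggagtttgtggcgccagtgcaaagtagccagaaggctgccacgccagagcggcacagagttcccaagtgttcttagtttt
Pole2 (chr12:69228141-69228440, minus strand): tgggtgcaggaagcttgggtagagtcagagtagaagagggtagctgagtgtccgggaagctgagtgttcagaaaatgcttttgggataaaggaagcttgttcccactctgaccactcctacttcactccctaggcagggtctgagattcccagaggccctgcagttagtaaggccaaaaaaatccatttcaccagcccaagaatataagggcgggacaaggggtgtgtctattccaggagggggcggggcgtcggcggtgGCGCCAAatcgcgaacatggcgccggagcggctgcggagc
Pold1 (chr7:44548766-44549065, minus strand): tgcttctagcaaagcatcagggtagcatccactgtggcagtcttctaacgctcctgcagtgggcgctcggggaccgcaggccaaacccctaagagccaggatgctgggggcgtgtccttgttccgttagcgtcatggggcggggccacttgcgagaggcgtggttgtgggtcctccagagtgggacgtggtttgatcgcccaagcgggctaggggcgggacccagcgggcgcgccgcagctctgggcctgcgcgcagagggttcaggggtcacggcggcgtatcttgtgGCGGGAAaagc
Fen1 (chr19:10203872-10204171, minus strand): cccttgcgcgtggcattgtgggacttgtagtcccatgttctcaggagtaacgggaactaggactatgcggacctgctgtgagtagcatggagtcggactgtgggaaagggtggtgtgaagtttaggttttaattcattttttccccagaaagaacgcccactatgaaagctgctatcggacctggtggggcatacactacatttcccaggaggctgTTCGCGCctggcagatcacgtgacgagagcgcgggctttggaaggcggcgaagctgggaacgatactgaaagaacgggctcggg
Pold2 (chr11:5878207-5878506, minus strand): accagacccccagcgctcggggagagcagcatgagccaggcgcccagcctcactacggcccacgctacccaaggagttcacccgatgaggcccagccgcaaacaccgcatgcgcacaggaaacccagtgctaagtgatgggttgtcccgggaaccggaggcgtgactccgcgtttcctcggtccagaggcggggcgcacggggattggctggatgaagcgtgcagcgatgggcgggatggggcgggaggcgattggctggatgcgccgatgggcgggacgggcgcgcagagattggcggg
Dbf4 (chr5:8422667-8422966, minus strand): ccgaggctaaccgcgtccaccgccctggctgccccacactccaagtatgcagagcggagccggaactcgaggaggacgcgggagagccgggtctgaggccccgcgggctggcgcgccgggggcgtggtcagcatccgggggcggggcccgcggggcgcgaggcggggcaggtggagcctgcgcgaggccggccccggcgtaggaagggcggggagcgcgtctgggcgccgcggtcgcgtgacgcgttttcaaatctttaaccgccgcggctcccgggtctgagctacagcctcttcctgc

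The first base of the E2f-type letters lay at position -37 from the start in Rpa2, 11 in Pole2, 40 in Pold1 and -34 in the Fen1 window shown, while the other Fen1 window held none. Neither Pold2 nor Dbf4 held these letters in the windows matched. Over the whole list, 21 of the 35 matched genes (60%) held them, against 2936 of 27025 genes (10.9%) with a window of the same length. By outcome in E2f/Myc QKO crypts, 12 of the 17 matched genes that rose held them (70.6%), as did 0 of the 2 that fell and 9 of the 16 that passed no test (56.2%). The E-box letters CACGTG were in 5 of the 35 genes (14.3%), against 8.09% of all genes. The CHR letters TTTGAA, found in many promoters of mitotic genes, were in 8 (22.9%), against 20.2% of all genes, and CCAAT was in 18 (51.4%), against 41.1%. A gene with several matches was counted once, and a match describes letters, not binding.

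The arrays were compared before the genes. Myc signal was 7.94 to 8.52 in E2f/Myc QKO, 9.99 to 10.66 in E2f TKO, 8.11 to 8.40 in Myc KO and 9.69 to 10.30 in control crypts, so both groups labelled as lacking Myc lay below both others. E2f3 signal was 8.09 to 8.19 in E2f/Myc QKO and 8.22, 8.39 and 8.08 in E2f TKO arrays 1, 3 and 4, but 9.35 and 9.10 in E2f TKO arrays 2 and 5, against 8.62 to 8.96 in control crypts. The same pair of arrays had Cyp1a1 signals of 5.05 and 4.91, while the other 16 arrays lay at 12.66 to 14.09, so they are called the libraries labelled E2f TKO 2 and 5, and counts of E2f TKO crypts are also given without them. The other deleted E2f genes showed no such loss, and each group overlapped the control range. E2f1 signal was 7.73 to 8.27 in E2f/Myc QKO, 7.48 to 7.84 in E2f TKO, 7.76 to 8.12 in Myc KO and 7.70 to 8.05 in control crypts. E2f2 signal was 9.18 to 9.41 in E2f/Myc QKO, 8.61 to 9.16 in E2f TKO, 8.71 to 9.43 in Myc KO and 8.91 to 9.28 in control crypts. Which exons the probe sets of the deleted genes read was not analysed here, so E2f1 and E2f2 do not check the labels. Signals of Mki67, a marker of dividing cells, were 9.81 to 10.46 in E2f/Myc QKO, 9.26, 11.87, 10.47, 10.51 and 11.49 in E2f TKO arrays 1 to 5, 11.35 to 11.77 in Myc KO and 11.65 to 11.89 in control crypts. All E2f/Myc QKO arrays, E2f TKO arrays 1, 3, 4 and 5 and Myc KO arrays 1 and 2 thus lay below every control array, with E2f TKO array 1 lowest. Xist, which female cells express, was high (12.02 to 13.40) on E2f/Myc QKO arrays 4 and 5, E2f TKO arrays 1 and 4 and control array 3, and on 0 Myc KO arrays, so sex was uneven between the groups. Actin control probes at the 3′ end exceeded those at the 5′ end, a gap that grows as RNA degrades, by 0.19 to 0.31 in E2f/Myc QKO crypts, 0.78 on E2f TKO array 2, 0.26 to 0.40 on its companions, 0.18 to 0.22 for Myc KO crypts and 0.31 to 0.44 for control crypts. All Myc KO arrays lay below all control arrays in this gap, and its part in the results was not tested. Array medians were 6.22 to 6.26 in E2f/Myc QKO and Myc KO crypts and 6.14 to 6.19 in E2f TKO and control crypts. Across all 18 arrays the crypt marker Olfm4 lay at 12.49 to 13.43, the Paneth marker Lyz1 at 14.42 to 14.70 and the goblet marker Muc2 at 12.20 to 13.26, while the muscle marker Myh11 lay at 4.70 to 5.18 and the neuronal marker Elavl4 at 4.08 to 4.49. Median differences of enterocyte and goblet markers from control crypts were within 0.20 in each group, and 0 of those genes passed the test. Without the libraries labelled E2f TKO 2 and 5, the enterocyte median in E2f TKO crypts was 0.32 with 1 of 10 genes higher, and 1 of 7 goblet markers was higher in E2f/Myc QKO crypts.

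In E2f/Myc QKO crypts 22 of the 43 genes rose and 2 fell relative to control crypts. The largest differences were in helicase parts: Gins2 rose 2.63-fold and Cdc45 2.01-fold, and the clamp loader gene Rfc2 rose 1.97-fold. Pold2 and Dbf4 fell. The number that fell was 4 without E2f TKO array 1 and 1 without control array 2, 3 or 4 or E2f/Myc QKO array 2 or 3. Calls over all genes, in either direction, were 4888 with every array, 5713 without E2f TKO array 1 and 3636 to 4139 without those others. The median difference over the list was 0.34, against 0.03 over all genes. Across all genes 26.9% passed the same test (adjusted p below 0.05, limma with Benjamini-Hochberg adjustment over 18193 genes), 14.3% higher and 12.6% lower. The signals of E2f/Myc QKO and control arrays did not overlap for 19 genes that were higher and 2 that were lower, against 13.2% and 13% of all genes. In bulk crypt RNA, fewer cells of a type and less RNA per cell cannot be told apart, and nothing in the labels says that arrays of a group came from separate mice, so p-values measure the spread between these arrays.

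By comparison with control crypts the 43 genes fell into 4 classes. Gins2, Mcm10, Pole4, Recql4, Rfc2 and Rpa2 passed the test as higher both in E2f TKO and in E2f/Myc QKO crypts. Another 16 passed it as higher in E2f/Myc QKO crypts and not in E2f TKO crypts. Of those 16, Cdc45, Wdhd1, Pole2, Pold1, Fen1 and Lig1 also passed the direct test of E2f/Myc QKO against E2f TKO crypts, and for the other 10 a difference between these groups is not shown. Pold2 and Dbf4 passed it as lower in E2f/Myc QKO crypts and not in the other groups, and 19 genes passed it in no group. None passed it in Myc KO crypts. A difference from Myc KO crypts is not shown for Pold2 or Dbf4 (adjusted p = 0.516 and 0.187), and one from E2f TKO crypts is shown for Pold2 (adjusted p = 0.0311) but not for Dbf4 (adjusted p = 0.117). These 3 comparisons share the 4 control arrays, so their differences are not independent of each other.

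**Figure D1:**
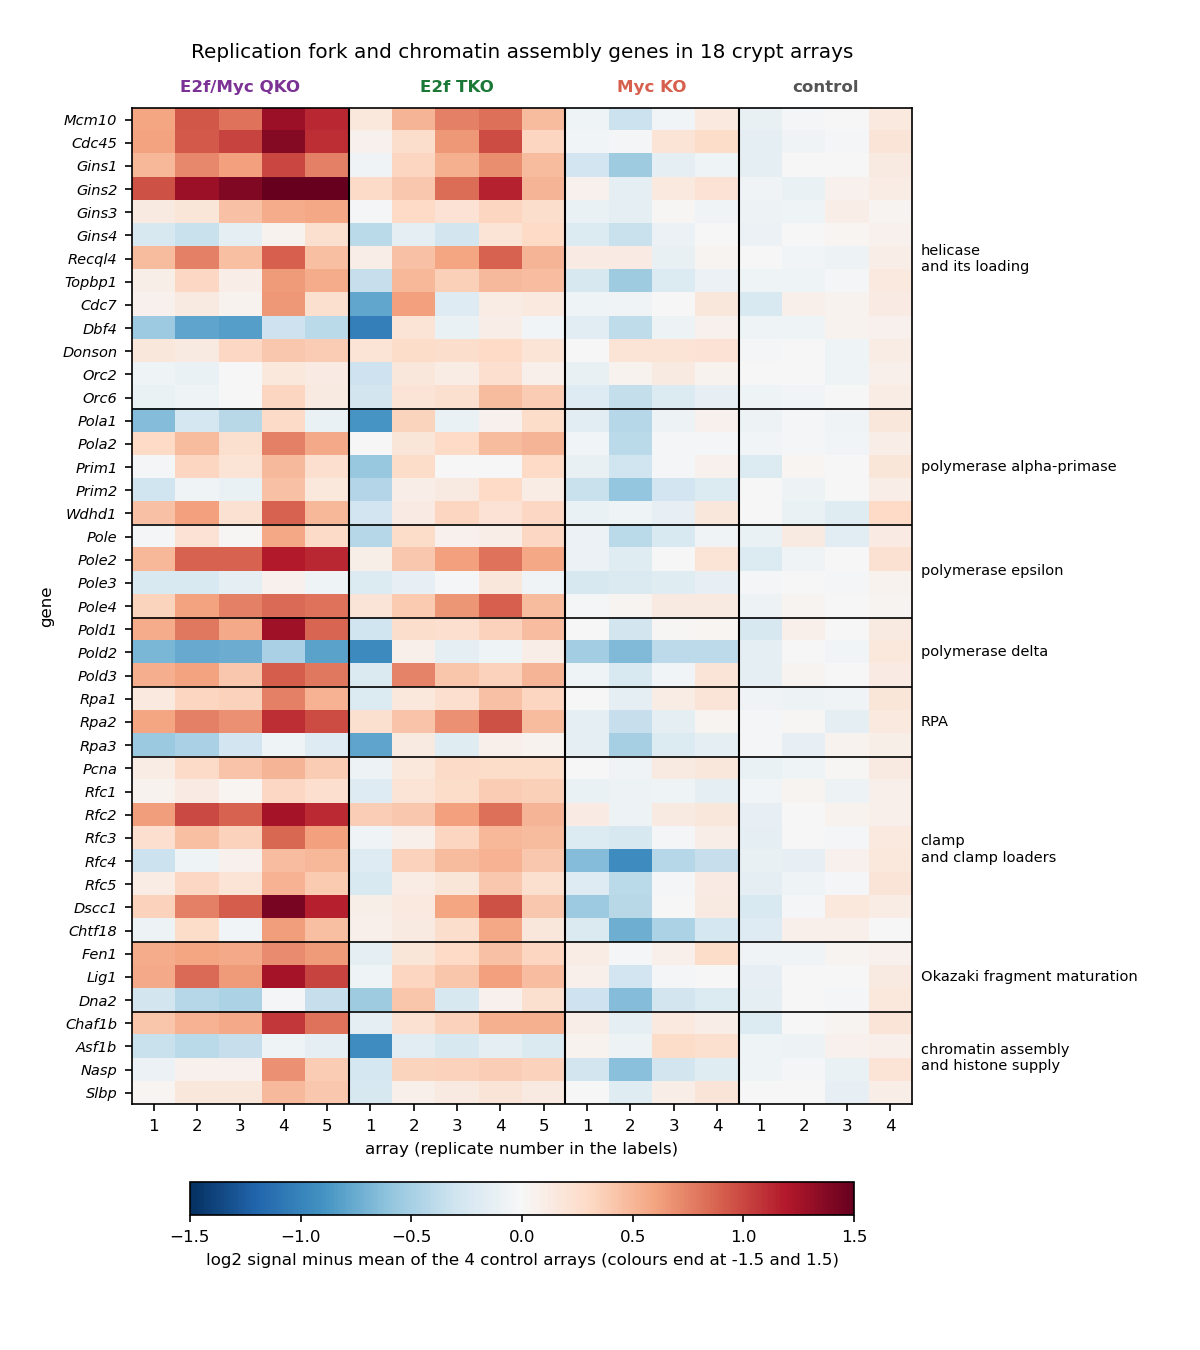
Log2 signal of each of the 43 measured genes minus its mean over the 4 control arrays, 1 column per array in the groups E2f/Myc QKO, E2f TKO, Myc KO and control, with genes in rows grouped by role. Gins2, Cdc45, Rfc2, Mcm10 and Pole2 are red in all 5 E2f/Myc QKO arrays, Pold2 is blue in all 5 of them, and E2f TKO array 1 is the bluest array of its group, with a median over the genes of -0.20.

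Genes of the helicase and its loading held the largest differences. Of 13 measured, 7 rose in E2f/Myc QKO crypts (Gins2, Cdc45, Mcm10, Gins1, Recql4, Gins3 and Donson), Dbf4 fell and 5 passed no test. Gins2, a subunit of the GINS complex (probe set 1428713_s_at), had signals of 10.53, 10.85, 10.96, 11.36 and 11.15 in E2f/Myc QKO, 9.86, 9.98, 10.41, 10.73 and 10.08 in E2f TKO, 9.64, 9.42, 9.72 and 9.79 in Myc KO and 9.52, 9.47, 9.63 and 9.68 in control crypts. All 5 E2f/Myc QKO arrays lay above every control and Myc KO array, and E2f TKO arrays lay between them with overlap to the E2f/Myc QKO arrays. The difference from control crypts was 1.40 ± 0.17 (adjusted p = 1.88e-05), with ± giving the standard error unless an SD is named.

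Cdc45, the partner that GINS joins on the Mcm ring (probe set 1416575_at), had signals of 8.99, 9.31, 9.40, 9.77 and 9.50 in E2f/Myc QKO, 8.45, 8.65, 9.04, 9.37 and 8.71 in E2f TKO, 8.35, 8.36, 8.59 and 8.66 in Myc KO and 8.26, 8.34, 8.37 and 8.58 in control crypts. E2f/Myc QKO arrays again lay above all control and Myc KO arrays, whereas E2f TKO array 1 lay within the control range. The difference between E2f/Myc QKO and control crypts was 1.01 ± 0.16 (adjusted p = 0.000304). Mcm10, which helps the assembled helicase to open DNA (probe set 1433408_a_at), had signals of 10.33, 10.67, 10.56, 11.02 and 10.87 in E2f/Myc QKO, 9.90, 10.25, 10.50, 10.57 and 10.22 in E2f TKO, 9.67, 9.42, 9.70 and 9.89 in Myc KO and 9.63, 9.71, 9.75 and 9.89 in control crypts. Its lowest E2f TKO array and highest control array stood at 9.90 and 9.89. In E2f/Myc QKO crypts it was higher by 0.95 ± 0.14 (adjusted p = 0.000146).

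Gins1, another GINS subunit (probe set 1452598_at), had signals of 9.33, 9.55, 9.45, 9.83 and 9.59 in E2f/Myc QKO, 8.78, 9.15, 9.36, 9.53 and 9.31 in E2f TKO, 8.54, 8.30, 8.70 and 8.76 in Myc KO and 8.70, 8.82, 8.84 and 8.97 in control crypts. It was higher in E2f/Myc QKO than in control crypts by 0.72 ± 0.13 (adjusted p = 0.000837), and Myc KO array 2 was its lowest array. A second, dim Gins1 probe set of mean signal 4.45, whose name marks possible cross-hybridization, went the other way, at -0.88 ± 0.15 (adjusted p = 0.000398 over all probe sets). Recql4, a helicase that acts at the start of replication (probe set 1422922_at), had signals of 7.33, 7.61, 7.31, 7.76 and 7.31 in E2f/Myc QKO, 6.96, 7.30, 7.45, 7.75 and 7.37 in E2f TKO, 6.98, 6.98, 6.75 and 6.90 in Myc KO and 6.85, 6.82, 6.78 and 6.96 in control crypts. The 5 E2f/Myc QKO arrays of Recql4 lay above its control arrays, with a difference of 0.61 ± 0.13 (adjusted p = 0.0019). Gins3 and Donson rose less, by 0.38 ± 0.10 (adjusted p = 0.00848) and 0.28 ± 0.07 (adjusted p = 0.0072).

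Dbf4, the subunit that activates the kinase Cdc7 (probe set 1418334_at), was the member of this group that fell. Its signals were 9.41, 9.17, 9.13, 9.65 and 9.55 in E2f/Myc QKO, 8.94, 10.17, 9.86, 10.06 and 9.92 in E2f TKO, 9.79, 9.58, 9.88 and 10.03 in Myc KO and 9.89, 9.90, 10.01 and 10.02 in control crypts. The 5 E2f/Myc QKO arrays lay below all control arrays, but E2f TKO array 1 was lower still, and the other 4 E2f TKO arrays lay at 9.86 to 10.17. The difference between E2f/Myc QKO and control crypts was -0.57 ± 0.19 (adjusted p = 0.03), and it missed the threshold, at an adjusted p of 0.0545 to 0.0726, without control array 2, 3 or 4 or E2f/Myc QKO array 2 or 3. With the mean of its probe sets the difference was -0.23 (adjusted p = 0.13). Cdc7 itself had a difference of 0.22 ± 0.20 (adjusted p = 0.431). The 5 genes that passed no test, Gins4, Topbp1, Cdc7, Orc2 and Orc6, had differences of -0.08 to 0.34 in E2f/Myc QKO crypts, and the fourth GINS gene, Gins4, was at -0.08 ± 0.14 (adjusted p = 0.7) while the other 3 GINS genes rose.

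Of the 5 genes of polymerase alpha and primase, Pola2 and Wdhd1 rose in E2f/Myc QKO crypts and 3 passed no test. Pola2, the second subunit of the polymerase, was higher by 0.47 ± 0.12 (adjusted p = 0.0068). Wdhd1, which links polymerase alpha to the helicase, was higher by 0.53 ± 0.14 (adjusted p = 0.00874), with overlap, its signals being 8.95 to 9.61 in E2f/Myc QKO and 8.54 to 9.02 in control crypts. Pola1, the catalytic subunit (probe set 1419397_at), had signals of 7.86, 8.25, 8.09, 8.80 and 8.41 in E2f/Myc QKO, 7.63, 8.84, 8.41, 8.57 and 8.79 in E2f TKO, 8.35, 8.08, 8.43 and 8.58 in Myc KO and 8.43, 8.48, 8.46 and 8.68 in control crypts. Its arrays overlapped between all groups, and the difference between E2f/Myc QKO and control crypts was -0.23 ± 0.21 (adjusted p = 0.444). The primase genes Prim1 and Prim2 had differences of 0.25 ± 0.15 and 0.03 ± 0.14, neither past the test.

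In polymerase epsilon, 2 of 4 genes rose in E2f/Myc QKO crypts. Pole2, the second subunit of the enzyme, whose promoter is printed above (probe set 1427094_at), had signals of 9.15, 9.54, 9.53, 9.84 and 9.78 in E2f/Myc QKO, 8.74, 9.06, 9.27, 9.47 and 9.23 in E2f TKO, 8.56, 8.47, 8.66 and 8.85 in Myc KO and 8.45, 8.60, 8.66 and 8.88 in control crypts. Every E2f/Myc QKO array lay above every control array, with a difference of 0.92 ± 0.15 (adjusted p = 0.000267). Pole4, a small histone-fold subunit (probe set 1423372_at), had signals of 9.31, 9.58, 9.74, 9.83 and 9.79 in E2f/Myc QKO, 9.17, 9.37, 9.64, 9.88 and 9.46 in E2f TKO, 8.95, 9.02, 9.11 and 9.11 in Myc KO and 8.90, 9.02, 8.99 and 9.02 in control crypts. Its E2f/Myc QKO and E2f TKO arrays lay above all control and Myc KO arrays, and in E2f/Myc QKO crypts it was higher by 0.67 ± 0.12 (adjusted p = 0.000686). Pole, the catalytic subunit (probe set 1448650_a_at), had signals of 8.97, 9.22, 9.02, 9.58 and 9.29 in E2f/Myc QKO, 8.57, 9.28, 9.07, 9.10 and 9.31 in E2f TKO, 8.91, 8.59, 8.77 and 8.95 in Myc KO and 8.90, 9.14, 8.83 and 9.12 in control crypts. The E2f/Myc QKO arrays of Pole overlapped the control arrays and lay above the Myc KO arrays, and the difference from control crypts was 0.22 ± 0.14 (adjusted p = 0.286). Pole3, the histone-fold partner of Pole4, was at -0.12 ± 0.08 (adjusted p = 0.273).

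Polymerase delta was the only role group in which all listed genes, here 3, passed the test in E2f/Myc QKO crypts, and they did not move one way. Pold4, a further subunit, was counted among the other fork genes below. It averaged 8.14 ± 0.19 (SD) in E2f/Myc QKO and 8.23 ± 0.12 (SD) in control crypts. Pold1, the catalytic subunit (probe set 1448187_at), had signals of 9.63, 9.86, 9.64, 10.34 and 9.94 in E2f/Myc QKO, 8.77, 9.33, 9.32, 9.41 and 9.53 in E2f TKO, 9.07, 8.79, 9.09 and 9.10 in Myc KO and 8.83, 9.15, 9.08 and 9.21 in control crypts. The E2f/Myc QKO arrays lay above all other arrays, and the difference from control crypts was 0.81 ± 0.15 (adjusted p = 0.000906). Pold2, the subunit that holds the others together (probe set 1448277_at), had signals of 10.29, 10.21, 10.23, 10.48 and 10.17 in E2f/Myc QKO, 10.01, 11.05, 10.83, 10.91 and 11.07 in E2f TKO, 10.45, 10.31, 10.58 and 10.58 in Myc KO and 10.83, 10.98, 10.93 and 11.13 in control crypts. Both groups labelled as lacking Myc lay wholly below the control arrays for Pold2, as did E2f TKO array 1, while the remaining E2f TKO arrays lay at 10.83 to 11.07, within the control range. Pold2 was lower in E2f/Myc QKO than in control crypts, with a difference of -0.69 ± 0.16 (adjusted p = 0.00429), and Pold3, an accessory subunit, was higher by 0.65 ± 0.15 (adjusted p = 0.00421).

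RPA, the trimer that coats single-stranded DNA, had 2 genes that rose and 1 that passed no test. Rpa2 (probe set 1416433_at), whose promoter is printed above, had signals of 10.09, 10.26, 10.19, 10.61 and 10.48 in E2f/Myc QKO, 9.74, 9.93, 10.18, 10.46 and 9.97 in E2f TKO, 9.36, 9.16, 9.35 and 9.54 in Myc KO and 9.48, 9.52, 9.37 and 9.65 in control crypts. E2f/Myc QKO and E2f TKO arrays lay above all control and Myc KO arrays, and the difference between E2f/Myc QKO and control crypts was 0.82 ± 0.13 (adjusted p = 0.000251). Rpa1, the largest subunit, was higher by 0.42 ± 0.13 (adjusted p = 0.0211) with overlapping arrays, a call lost at an adjusted p of 0.0523 to 0.0597 without control array 2 or 3 or E2f/Myc QKO array 4. Rpa3, the smallest, was at -0.32 ± 0.15 (adjusted p = 0.141).

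Among the 8 clamp and clamp loader genes, Rfc2, Dscc1, Rfc3 and Pcna rose in E2f/Myc QKO crypts and 4 passed no test. Rfc2, a small subunit of replication factor C (probe set 1417503_at), had signals of 10.97, 11.33, 11.23, 11.59 and 11.46 in E2f/Myc QKO, 10.71, 10.74, 10.96, 11.17 and 10.85 in E2f TKO, 10.46, 10.26, 10.48 and 10.51 in Myc KO and 10.22, 10.34, 10.39 and 10.42 in control crypts. Its E2f/Myc QKO and E2f TKO arrays lay above every control and Myc KO array. With 0.98 ± 0.11 (adjusted p = 1.56e-05), it had the lowest adjusted p of the list. Dscc1, part of the alternative loader that serves sister chromatid cohesion (probe set 1452912_at), had signals of 7.53, 7.93, 8.09, 8.60 and 8.35 in E2f/Myc QKO, 7.27, 7.33, 7.77, 8.14 and 7.59 in E2f TKO, 6.64, 6.76, 7.19 and 7.31 in Myc KO and 6.95, 7.16, 7.34 and 7.29 in control crypts. Dscc1 was higher in E2f/Myc QKO crypts by 0.92 ± 0.21 (adjusted p = 0.00344), and Myc KO arrays 1 and 2 lay below all control arrays.

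Pcna, the clamp (probe set 1417947_at), had signals of 13.13, 13.31, 13.45, 13.53 and 13.40 in E2f/Myc QKO, 12.94, 13.18, 13.31, 13.30 and 13.29 in E2f TKO, 13.03, 12.97, 13.15 and 13.19 in Myc KO and 12.92, 12.96, 13.04 and 13.15 in control crypts. Its E2f/Myc QKO arrays overlapped the control arrays through array 1, and the difference was 0.35 ± 0.09 (adjusted p = 0.00959), a 1.27-fold change. Rfc3 was higher by 0.50 ± 0.13 (adjusted p = 0.0083). Rfc4, another small subunit of the loader (probe set 1424321_at), had signals of 9.32, 9.57, 9.70, 10.10 and 10.14 in E2f/Myc QKO, 9.45, 9.98, 10.12, 10.16 and 10.04 in E2f TKO, 8.99, 8.70, 9.21 and 9.30 in Myc KO and 9.53, 9.52, 9.70 and 9.80 in control crypts. Its 4 Myc KO arrays lay below every other array, whereas E2f/Myc QKO arrays overlapped the control arrays, with a difference of 0.13 ± 0.17 (adjusted p = 0.624). Chtf18, the large subunit of the cohesion loader (probe set 1452098_at), had signals of 7.94, 8.30, 7.98, 8.65 and 8.47 in E2f/Myc QKO, 8.10, 8.16, 8.28, 8.60 and 8.19 in E2f TKO, 7.80, 7.29, 7.55 and 7.76 in Myc KO and 7.83, 8.10, 8.10 and 8.03 in control crypts. As for Rfc4, the Myc KO arrays held the lowest Chtf18 values and the E2f/Myc QKO difference from control crypts, 0.25 ± 0.14 (adjusted p = 0.21), passed no test. Rfc1 and Rfc5 were at 0.15 ± 0.10 and 0.31 ± 0.12, neither past the test.

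Of the 3 genes that process Okazaki fragments, Lig1 and Fen1 rose in E2f/Myc QKO crypts. Lig1, the ligase that seals the nicks (probe set 1416641_at), had signals of 10.91, 11.19, 10.98, 11.59 and 11.35 in E2f/Myc QKO, 10.27, 10.66, 10.76, 10.96 and 10.80 in E2f TKO, 10.42, 10.05, 10.32 and 10.35 in Myc KO and 10.22, 10.33, 10.33 and 10.47 in control crypts. All 5 E2f/Myc QKO arrays lay above the control arrays, with a difference of 0.87 ± 0.14 (adjusted p = 0.000271). Fen1, the nuclease that cuts flaps, averaged 12.05 ± 0.06 in E2f/Myc QKO crypts (SD, n = 5) and 11.44 ± 0.06 in control crypts (SD, n = 4), with a difference of 0.62 ± 0.09 (adjusted p = 0.000166). Dna2, a nuclease and helicase for long flaps, was at -0.31 ± 0.16 (adjusted p = 0.155).

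On their brightest probe sets, 1 of the 4 measured genes of chromatin assembly and histone supply passed the test in E2f/Myc QKO crypts. Chaf1b, the middle subunit of CAF-1, was at 8.98 to 9.62 in E2f/Myc QKO and 8.35 to 8.75 in control crypts, and was higher by 0.67 ± 0.14 (adjusted p = 0.00219). Slbp, which binds the stem-loop of histone mRNAs (probe set 1460168_at), had signals of 11.10, 11.24, 11.24, 11.56 and 11.48 in E2f/Myc QKO, 10.83, 11.15, 11.21, 11.26 and 11.20 in E2f TKO, 11.06, 10.89, 11.17 and 11.26 in Myc KO and 11.07, 11.08, 10.95 and 11.17 in control crypts. The groups overlapped for Slbp, with a difference of 0.26 ± 0.10 (adjusted p = 0.0778) on this probe set. A dimmer Slbp probe set passed the test as higher, adjusted over all probe sets. Asf1b, a chaperone that hands histones to CAF-1 (probe set 1423714_at), had signals of 9.19, 9.11, 9.17, 9.46 and 9.38 in E2f/Myc QKO, 8.59, 9.36, 9.28, 9.39 and 9.30 in E2f TKO, 9.57, 9.44, 9.80 and 9.76 in Myc KO and 9.45, 9.44, 9.59 and 9.60 in control crypts. Asf1b was lower in every E2f TKO array than in any control array, but the difference between E2f/Myc QKO and control crypts was -0.26 ± 0.14 (adjusted p = 0.176). Nasp, a carrier of histones H3 and H4, was at 0.22 ± 0.16 (adjusted p = 0.325) on its brightest probe set, while 3 dimmer Nasp probe sets were higher in E2f/Myc QKO crypts by 0.46, 0.83 and 0.70 (adjusted p = 0.00131, 0.000184 and 0.00504 over all probe sets).

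**Figure D2:**
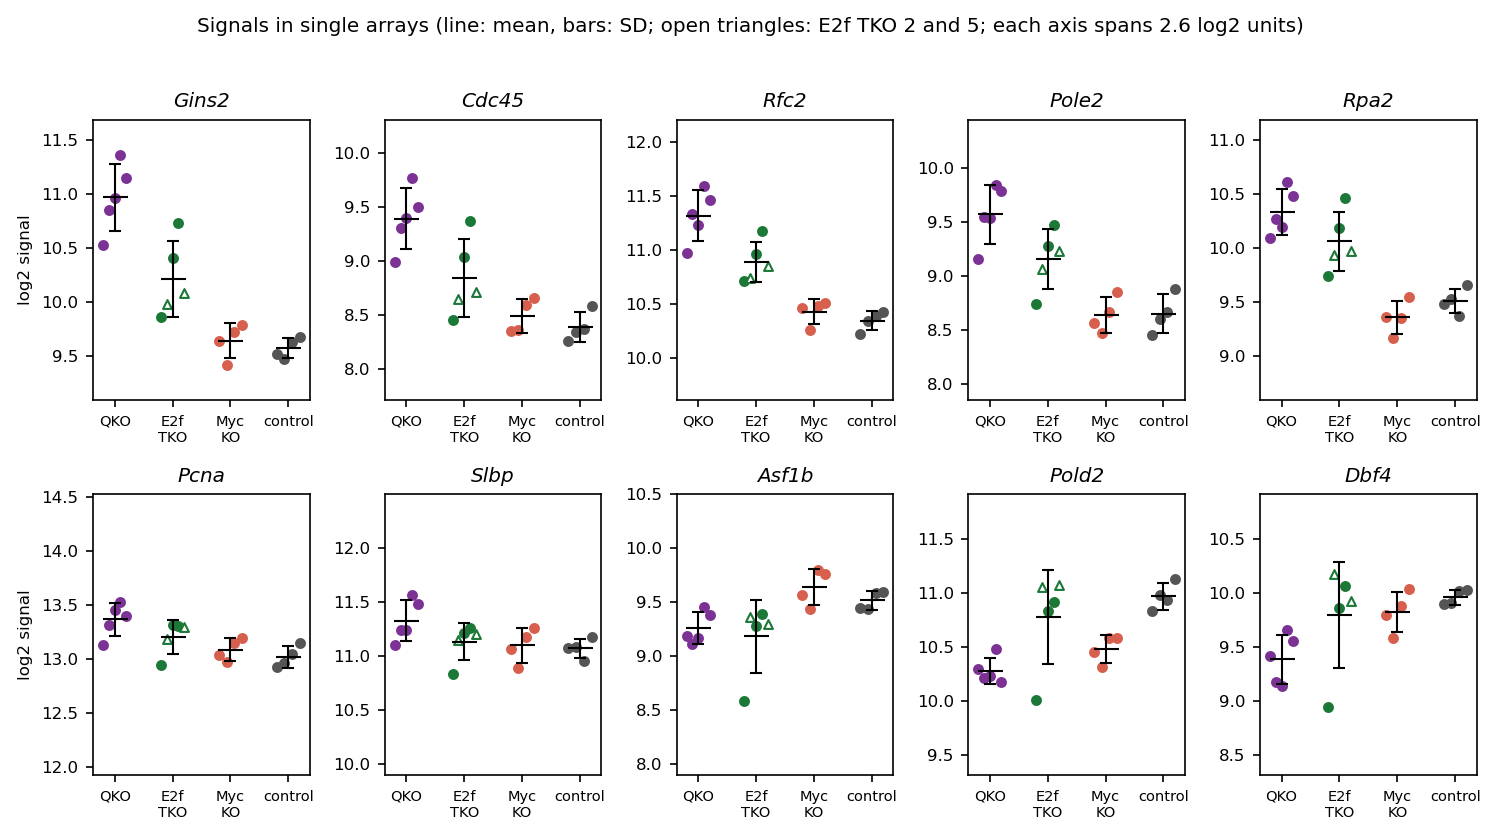
Log2 signals of 10 of the genes in single arrays of E2f/Myc QKO, E2f TKO, Myc KO and control crypts, with the mean as a line, the SD as bars and E2f TKO arrays 2 and 5 as open triangles. For Gins2 and Rfc2 all E2f/Myc QKO and E2f TKO points lie above the control points, and for Pold2 and Dbf4 all E2f/Myc QKO points lie below them.

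In E2f TKO relative to control crypts 6 of the 43 genes rose and none fell, against 2.9% of all genes past the test (1.68% higher, 1.22% lower). An unadjusted p below 0.05 was found for 18 of the 43 genes and for 2552 of all 18193 genes. The 6 were Gins2, at 0.64 ± 0.17 (adjusted p = 0.0452), Rpa2, at 0.55 ± 0.13 (adjusted p = 0.0268), Mcm10, at 0.54 ± 0.14 (adjusted p = 0.0455), Rfc2, at 0.54 ± 0.11 (adjusted p = 0.012), Pole4, at 0.52 ± 0.12 (adjusted p = 0.0232), and Recql4, at 0.51 ± 0.13 (adjusted p = 0.0341). For these genes, picked by the test on the same arrays, all 5 E2f TKO arrays lay above all control arrays. For Recql4 the lowest E2f TKO and the highest control array both rounded to 6.96. Over the whole list these arrays did not overlap for 7 genes that were higher and 1 that was lower, and the share over all genes is not given here. The median over the list was 0.21, against 0 over all genes. Without the libraries labelled E2f TKO 2 and 5 the same 6 genes passed the test, Gins2 at 0.76 ± 0.19 (adjusted p = 0.0225) and Rfc2 at 0.60 ± 0.13 (adjusted p = 0.0106), while 7.27% of all genes did, and the median was 0.16.

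The E2f TKO count rested on single arrays. It was 13 without E2f TKO array 1 and 1 without E2f TKO array 3, E2f TKO array 4, or control array 1, 2 or 3. It was 2 without control array 4. Calls over all 18193 genes moved too, from 527 to 830 without E2f TKO array 1 and to 277 to 376 without those others. Rfc2 was the gene of the list that kept its call in all 29 alternatives tried. E2f TKO array 1 had a median over the 43 genes of -0.20 relative to the control mean, whereas E2f TKO arrays 2 to 5 had medians of 0.26, 0.28, 0.39 and 0.32. Of the 37 genes past no test, the widest differences were those of Pole2, at 0.50 ± 0.15 (adjusted p = 0.0839), Cdc45, at 0.46 ± 0.16 (adjusted p = 0.183), and Dscc1, at 0.44 ± 0.21 (adjusted p = 0.35). Asf1b, at -0.33 ± 0.14 (adjusted p = 0.26), was the gene furthest below 0.

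**Figure D3:**
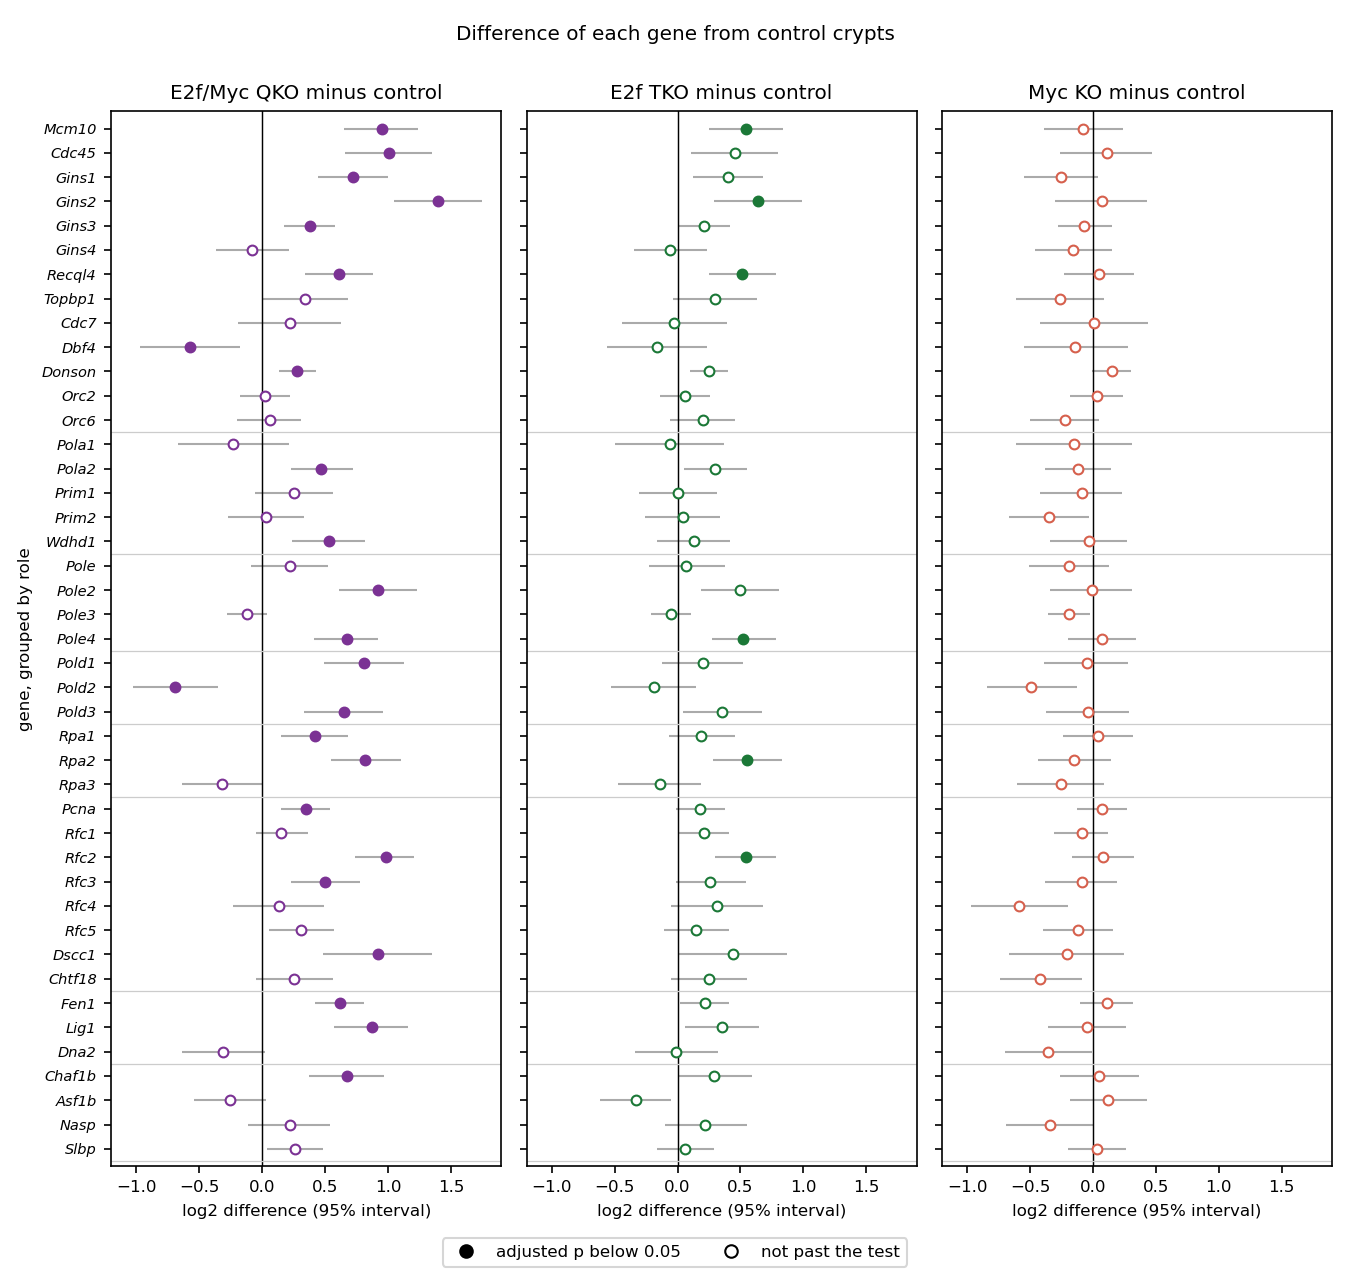
Log2 difference of each of the 43 genes from control crypts with its 95% interval, in E2f/Myc QKO (left), E2f TKO (middle) and Myc KO crypts (right); filled points have an adjusted p below 0.05. There are 24 filled points for E2f/Myc QKO, 6 for E2f TKO and 0 for Myc KO crypts, and the E2f/Myc QKO points for Pold2 and Dbf4 lie left of 0.

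With 1 probe set per gene, loss of Myc alone moved no gene of the list past the test. In Myc KO relative to control crypts limma called 0 of 43 genes, against 8.31% of all genes (3.59% higher, 4.72% lower). An unadjusted p below 0.05 was found for 6 of the 43 genes and for 4339 of all 18193 genes. With arrays weighted by their quality limma called 6 of the 43, and 3427 of all 18193 genes against 1511 without weights. The median over the list was -0.09, against 0.02 over all genes. For 10 genes all 4 Myc KO arrays lay below all 4 control arrays, as for 11.8% of all genes, and for 0 they all lay above, as for 10.6% of all genes. The 4 genes furthest below 0 were Rfc4, at -0.59 ± 0.18 (adjusted p = 0.0556), Pold2, at -0.49 ± 0.17 (adjusted p = 0.0848), Chtf18, at -0.42 ± 0.15 (adjusted p = 0.102), and Dna2, at -0.36 ± 0.16 (adjusted p = 0.194). Leaving out E2f TKO array 1 gave 2 calls, and leaving out E2f/Myc QKO array 1, 4 or 5 or Myc KO array 4 gave 1. Over all genes these fits called 2227 without E2f TKO array 1 and 1299 to 1506 without the others. When p-values were adjusted over all probe sets instead of over genes, the same Rfc4 probe set was called lower. A further probe set each of Nasp, Donson and Gins1 was also called in that setting.

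Adding Myc loss to E2f loss was read from E2f/Myc QKO minus E2f TKO crypts. Here 9 of the 43 genes were higher and 1 lower in E2f/Myc QKO crypts, against 9.09% and 7.95% of all genes (17% in either direction), with a median of 0.16 over the list and 0.04 over all genes. The genes with the largest positive differences were Gins2, at 0.76 ± 0.16 (adjusted p = 0.00373), Pold1, at 0.61 ± 0.14 (adjusted p = 0.00839), Cdc45, at 0.55 ± 0.15 (adjusted p = 0.0225), and Lig1, at 0.52 ± 0.13 (adjusted p = 0.0129). Fen1, Rfc2, Pole2, Mcm10 and Wdhd1 were also higher, and Pold2 was lower, at -0.50 ± 0.15 (adjusted p = 0.0311). The arrays of these groups did not overlap for 2 genes, Pold1 and Fen1, against 5.58% of all genes. Without the libraries labelled E2f TKO 2 and 5 the count was 5, of which Gins2, Pold1, Fen1 and Lig1 were called in both, and Pold3, at 0.47 ± 0.14 (adjusted p = 0.0448), was added. Pold2 was then at -0.31 ± 0.16 (adjusted p = 0.22), while 11.8% of all genes passed the test. The count was also lower without E2f TKO array 2, at 5, or without E2f/Myc QKO array 2, 4 or 5, at 6 each. Over all genes these fits called 2328 without E2f TKO array 2 and 2185 to 2901 without the others, against 3100 with every array. The split of the list by direction moved as well: 6 were higher and 5 lower without E2f TKO array 1, and 0 were lower without any other E2f TKO array or without E2f/Myc QKO array 1, 2, 3 or 5. Pold1 was called in all 29 alternatives, and the other 9 genes were not.

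Adding E2f loss to Myc loss was read from E2f/Myc QKO minus Myc KO crypts. In E2f/Myc QKO relative to Myc KO crypts 24 of the 43 genes were higher and 0 lower, against 4.6% and 3.09% of all genes (7.68% in either direction). Their largest differences were those of Gins2, at 1.33 ± 0.17 (adjusted p = 0.000104), Dscc1, at 1.13 ± 0.21 (adjusted p = 0.00256), Mcm10, at 1.02 ± 0.14 (adjusted p = 0.000282), and Gins1, at 0.97 ± 0.13 (adjusted p = 0.000254). The median over the list was 0.51, against 0.01 over all genes. For 26 genes the 5 E2f/Myc QKO arrays lay above all 4 Myc KO arrays, against 7.22% of all genes. Rfc4 and Chtf18, which passed no test against control crypts, were higher here by 0.71 ± 0.17 (adjusted p = 0.0163) and 0.67 ± 0.14 (adjusted p = 0.00796). Pold2 and Dbf4 were at -0.21 ± 0.16 (adjusted p = 0.516) and -0.44 ± 0.19 (adjusted p = 0.187). The counts without 1 array ran from 20 to 33, and over all genes from 918 to 2008, against 1398 with every array. Of the genes named here, Rfc4 lost its call without Myc KO array 2 (adjusted p = 0.0663), and Nasp, Rfc5, Topbp1 and Wdhd1, called here too, lost theirs without some single arrays. With Xist as a covariate Rfc4, Nasp, Rfc5 and Topbp1 lost this call (adjusted p = 0.0532, 0.0886, 0.105 and 0.0621).

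E2f TKO and Myc KO crypts were also compared directly, which uses no control array. Of the 43 genes, 16 were higher and 1 lower in E2f TKO crypts, against 7.87% and 6.16% of all genes (14% in either direction). Rfc4, at 0.90 ± 0.17 (adjusted p = 0.0024), Rpa2, at 0.70 ± 0.13 (adjusted p = 0.00193), Chtf18, at 0.67 ± 0.14 (adjusted p = 0.00557), and Gins1, at 0.65 ± 0.13 (adjusted p = 0.00374), were highest relative to Myc KO crypts. Asf1b was lower, at -0.46 ± 0.14 (adjusted p = 0.0324), with its signals at 8.59 to 9.39 in E2f TKO and 9.44 to 9.80 in Myc KO crypts. The median was 0.30 over the list and -0.02 over all genes. Without the libraries labelled E2f TKO 2 and 5 the count was 11, all 11 among the 17, with 12.5% of all genes past the test and Topbp1, Orc6, Pola2, Pole2, Rfc1 and Nasp no longer called. Single arrays moved the count too: it was 27 without E2f TKO array 1, 10 without E2f TKO array 3, 8 without E2f TKO array 4, and 9, 7 and 11 without Myc KO arrays 1, 2 and 3 in turn. Over all genes the same fits called 3970, 1892, 1919, 1639, 1532 and 1899, against 2552 with every array. Rfc4, Rpa2, Chtf18 and Gins1 kept their calls in all 29 alternatives.

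Whether the difference made by losing both differs from the sum of the 2 single losses was tested as an interaction: the difference of E2f/Myc QKO from E2f TKO crypts, less that of Myc KO from control crypts. By limma, 0 genes of the list passed the test, with a lowest adjusted p of 0.653. Across all genes 0.055% passed. An unadjusted p below 0.05 was found for 10 genes of the list and for 1153 of all 18193 genes. The interaction was above 0 for 37 of the 43 genes, with a median of 0.29, and for 9732 of 18193 genes, with a median of 0.01. Gins2, at 0.69 ± 0.23, Dscc1, at 0.69 ± 0.29, and Pold1, at 0.66 ± 0.22, had the largest values. Neither the sum nor a departure from it is shown for any single gene.

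Genes that act with these at the fork, but were not on the list, were counted beside them. Of 16 licensing genes, which load the Mcm ring before S phase, 11 rose and 2 fell in E2f/Myc QKO relative to control crypts, with a median of 0.69. Cdt1, the loader of the ring, was higher by 1.12 ± 0.13 (adjusted p = 1.67e-05), and Orc1, a subunit of the origin recognition complex, by 0.95 ± 0.10 (adjusted p = 6.72e-06). In E2f TKO crypts 5 of the 16 rose, and 6 without the libraries labelled E2f TKO 2 and 5, and in Myc KO crypts Orc5 fell, at -0.44 ± 0.10 (adjusted p = 0.0103). Of 13 other fork genes, 6 rose in E2f/Myc QKO, 1 in E2f TKO (1 also without the libraries labelled E2f TKO 2 and 5) and 0 in Myc KO crypts, with Timeless, which steadies the moving fork, higher by 1.63 ± 0.16 in E2f/Myc QKO crypts (adjusted p = 4.63e-06). Rnaseh2a, of the enzyme that removes RNA from DNA, fell in Myc KO crypts, at -0.61 ± 0.15 (adjusted p = 0.0202).

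Other histone chaperones split, with 5 of 14 higher and 3 lower in E2f/Myc QKO crypts, 2 higher in E2f TKO, and 1 higher and 1 lower in Myc KO crypts. Without the libraries labelled E2f TKO 2 and 5, 2 were higher and 1 lower in E2f TKO crypts. Hat1, which acetylates new histone H4, was higher in E2f/Myc QKO crypts by 0.80 ± 0.13 (adjusted p = 0.000283) and in E2f TKO crypts by 0.67 ± 0.13 (adjusted p = 0.00621). Nap1l1, a carrier of histones H2A and H2B, fell in Myc KO crypts, at -0.74 ± 0.20 (adjusted p = 0.0276).

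Genes of mitosis went the other way. Of 21 measured, 19 fell and 0 rose in E2f/Myc QKO crypts, with a median of -1.07, and Nusap1, a spindle protein, was at -2.11 ± 0.27 (adjusted p = 4.05e-05). Per array, the median over mitosis genes minus the control mean was -1.01, -1.58, -1.14, -0.68 and -0.83 in E2f/Myc QKO, -1.38, -0.04, -0.51, -0.30 and -0.20 in E2f TKO, -0.19, -0.35, -0.05 and 0.07 in Myc KO, and -0.12, -0.15, 0.12 and 0.11 in control crypts. The median over the 43 fork and assembly genes on the same arrays was 0.12, 0.32, 0.23, 0.64 and 0.46 in E2f/Myc QKO, -0.20, 0.26, 0.28, 0.39 and 0.32 in E2f TKO, -0.10, -0.28, -0.03 and 0.06 in Myc KO, and -0.08, -0.02, 0.00 and 0.12 in control crypts. Thus E2f/Myc QKO arrays were above the control mean for the fork genes and below it for mitosis genes, and E2f TKO array 1 was low for both. In E2f TKO crypts 1 mitosis gene fell, and 9 did without the libraries labelled E2f TKO 2 and 5, whose mitosis medians were closest to 0 in their group.

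**Figure D4:**
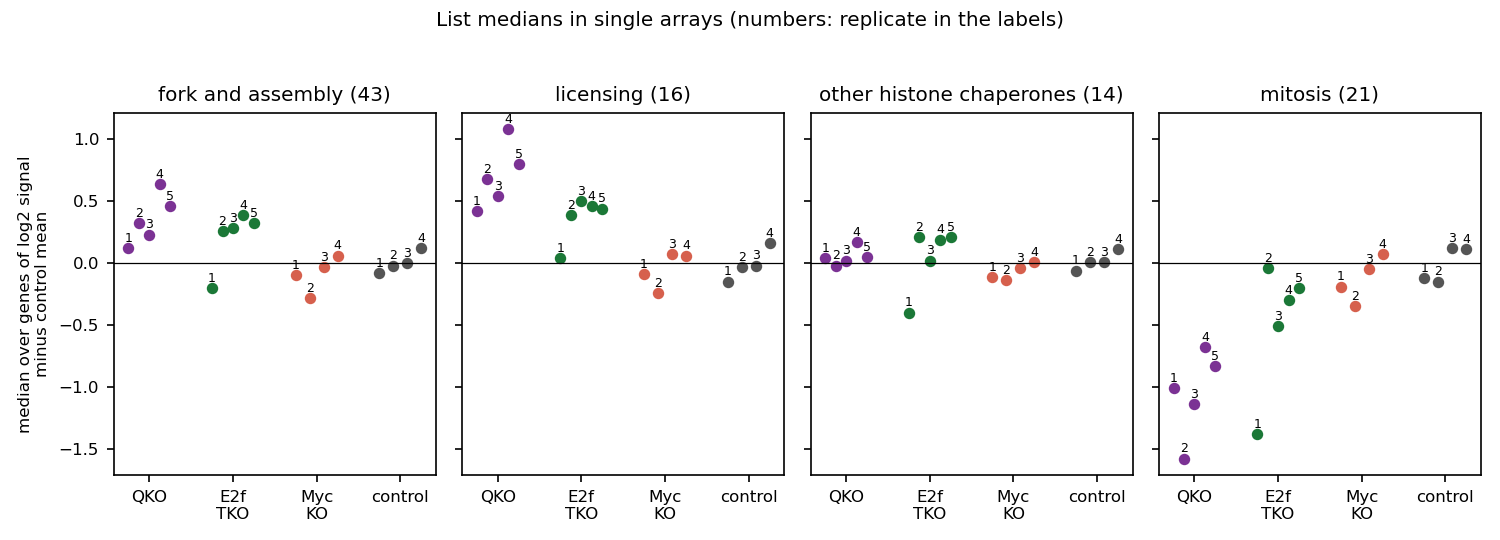
Median over genes of log2 signal minus the control mean in each array, for the 43 fork and assembly genes, 16 licensing genes, 14 other histone chaperones and 21 mitosis genes, with arrays of E2f/Myc QKO, E2f TKO, Myc KO and control crypts from left to right and replicate numbers beside the points. In E2f/Myc QKO crypts the fork medians lie at 0.12 to 0.64 and the mitosis medians at -1.58 to -0.68.

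Markers of cell types also differed with the groups. In E2f/Myc QKO crypts 6 of 8 enteroendocrine markers, 5 of 6 tuft markers and 3 of 7 crypt stem markers were higher than in control crypts, with medians of 0.78, 0.48 and 0.55, and 0 of 5 Paneth, 0 of 7 goblet and 0 of 10 enterocyte markers passed the test. Of 9 T cell markers 1 was higher, with a list median of 0.27, as were 2 of 9 fibroblast and muscle and 1 of 4 neuron and glia markers. In E2f TKO crypts 3 enteroendocrine markers were higher and 0 tuft or stem markers, and 1 of 4 neuron and glia markers was higher. Without the libraries labelled E2f TKO 2 and 5, 2 enteroendocrine markers, 1 enterocyte marker and 1 neuron and glia marker were higher there. In Myc KO crypts 2 of 8 enteroendocrine markers, with a median of 0.45, 1 tuft and 1 stem marker were higher. In E2f TKO array 1 the median over enterocyte markers was 0.75 and that over T cell markers 1.21 above the control mean. The part of these differences in the results above was not tested.

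Several genes were read by more than 1 probe set. Of the 24 genes called in E2f/Myc QKO relative to control crypts, 19 had other probe sets, all of which gave the same call for 12 genes, and Gins1 alone had one with the opposite call. All other probe sets gave the same call for 2 of 5 such genes in E2f TKO relative to control crypts, 4 of 7 in E2f/Myc QKO relative to E2f TKO, 10 of 19 in E2f/Myc QKO relative to Myc KO and 4 of 13 in E2f TKO relative to Myc KO crypts, where 6 of the 13 had a probe set of opposite sign. Among the genes not called in E2f/Myc QKO relative to control crypts, a further probe set each of Slbp, Prim2 and Topbp1 was called higher, besides those of Nasp given above. Dbf4 had a second probe set of mean signal 4.02 with a difference of 0.11. Of the 43 genes, 5 lie within 20 Mb of a deleted locus: Gins1 near E2f1, Rpa2 and Nasp near E2f2, and Recql4 and Dscc1 near Myc. Their part in these differences was not tested.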

How the data were processed

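The authors deposited 1 normalized log2 value per probe set and array, and the normalization method is not given in the sources used here. Values ran from 2.29 to 14.81 and were used without further scaling, with an array median range of 0.126. The labels' groups were kept. Of 45101 probe sets, 34945 had 1 gene symbol in GEO's platform annotation, 932 had several and 9160 none. Each of 18193 genes was read by its brightest such probe set. All 18 arrays entered 1 limma fit of 4 group means (limma 3.58.1, R 4.3.3), with two-sided tests, Benjamini-Hochberg adjustment over all genes and a threshold of 0.05. In data simulated with independent noise for E2f/Myc QKO minus control on 18193 genes, 60 of 100 log2 changes of 0.5 (60%) and 47 of 50 changes of 1 (94%) were recovered. Far fewer genes changed there than the 26.9% called in the real comparison, so these rates do not give its sensitivity. The number of arrays limits the precision. The members, lists, named genes and alternatives (probe set choice, a floor, quantile scaling, weights, a replicate block, Xist, arrays left out) were chosen with earlier results of these data known. Single-array values were given for up to 6 genes per direction against control, up to 4 in other comparisons, and a fixed set. Promoter letters were counted with Python 3.11.15.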

Additional observations from a re-analysis of the deposited data

Results flagged for a closer look

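Within 172 combinations of gene and group, 14 single arrays lay apart from the rest of their group by a gap that Dixon's 95% limit allows by chance in about 1 of 20 groups. In 9 of the 14 the array was E2f TKO 1, always as the lowest of its group. It read 9.94 for Topbp1 against 10.64 to 10.78 on the other E2f TKO arrays, 8.94 for Dbf4 against 9.86 to 10.17, 8.15 for Prim2 against 8.69 to 8.89, 8.77 for Pold1 against 9.32 to 9.53, and 10.01 for Pold2 against 10.83 to 11.07. It read 9.45 for Rfc4 against 9.98 to 10.16, 8.59 for Asf1b against 9.28 to 9.39, 10.17 for Nasp against 10.76 to 10.80, and 10.83 for Slbp against 11.15 to 11.26.

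Myc KO array 1 read 8.86 for Donson, below 9.07 to 9.09 on the other Myc KO arrays. Myc KO array 2 read 8.68 for Pola2, below 9.04 to 9.06, and 8.79 for Pold1, below 9.07 to 9.10. Control array 4 was high, at 9.18 for Pola2 against 9.04 to 9.06 on the other control arrays, and at 11.69 for Rpa1 against 11.43 to 11.46.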

How the results depend on the processing

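Of 81 called differences, the call held in all 29 alternatives for 21 of 24 genes in E2f/Myc QKO minus control, 19 of 24 in E2f/Myc QKO minus Myc KO, 4 of 17 in E2f TKO minus Myc KO, 1 of 10 in E2f/Myc QKO minus E2f TKO and 1 of 6 in E2f TKO minus control. The alternative without E2f TKO arrays 1, 2 and 5 was chosen after seeing the data. Genes called in E2f TKO minus control (6) numbered 15 with array weights, 1 with the 2 groups alone and 11 without E2f TKO arrays 1, 2 and 5. Over all 18193 genes these settings called 1356, 253 and 1213 in turn, against 527 in the main fit. In Myc KO minus control (0) there were 1 above the median level, 2 with the mean of probe sets, 4 with the 2 groups alone, 6 with array weights and 2 without E2f TKO arrays 1, 2 and 5. Over all genes these settings called 1166 (of 9096 tested), 1436, 2681, 3427 and 2577 in turn, against 1511 in the main fit. In E2f/Myc QKO minus E2f TKO (10) there were 3 with the 2 groups alone, 5 without E2f TKO arrays 2 and 5, and 3 without 1, 2 and 5. All-gene counts were 1549, 2155 and 2389 in turn, against 3100 in the main fit. In E2f TKO minus Myc KO (17) there were 10 with Xist as a covariate, 11 with the mean of probe sets, 7 with the 2 groups alone and 11 without E2f TKO arrays 2 and 5. All-gene counts were 2035, 2586, 1237 and 2274 in turn, against 2552 in the main fit. Leaving out 1 array at a time gave 1 to 13 calls in E2f TKO minus control, 0 to 2 in Myc KO minus control, 22 to 29 in E2f/Myc QKO minus control, 5 to 12 in E2f/Myc QKO minus E2f TKO, 20 to 33 in E2f/Myc QKO minus Myc KO, 7 to 27 in E2f TKO minus Myc KO and 0 in the interaction. Over all genes the first 3 of these ranges were 277 to 830, 640 to 2227 and 3636 to 5713. The others were 2185 to 4288, 918 to 2008, 1532 to 3970 and 6 to 14 in turn. Gins1 in E2f/Myc QKO minus control was -0.08 (adjusted p = 0.638) with the mean of its probe sets. Without probe sets marked as possibly cross-hybridizing, Nasp was 0.55 in E2f/Myc QKO minus E2f TKO (adjusted p = 0.0249) and -0.01 in E2f TKO minus Myc KO (adjusted p = 0.977). Of 220 uncalled differences, 65 changed sign in some alternative. With 1 more T in front, the E2f-type letters were in 9 of the 35 matched genes (25.7%), against 2.6% of all genes with a promoter window. The causes were not tested. Same-numbered arrays of 2 groups had correlations of -0.16 to 0.35, over 0.1 in 13 of 25 pairs, so the numbers were not taken to pair the arrays. With the replicate number as a block the counts were 9 in E2f TKO minus control, 1 in Myc KO minus control, 25 in E2f/Myc QKO minus control, 14 in E2f/Myc QKO minus E2f TKO, 27 in E2f/Myc QKO minus Myc KO, 21 in E2f TKO minus Myc KO and 0 in the interaction. Over all 18193 genes they were 653, 1821, 5335, 3489, 1545, 2610 and 11 in turn.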
